A study of Mus musculus with 18 samples.

Results

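The genes described here act in MHC class I antigen presentation and are a list of 10 of the 54347 genes in the count table, matched by symbol: H2-D1, H2-K1, B2m, Tap1, Tap2, Tapbp, Psmb8, Psmb9, Psmb10 and Nlrc5. All 10 passed the filter on low counts, as did 14949 genes of the whole table. They were measured by polyA RNA-seq in 18 libraries of brown adipocytes differentiated from wt1-SAM cells. These are immortalised preadipocytes of mouse brown fat with a stably integrated CRISPR activation system (SAM), which all groups share. After differentiation with rosiglitazone, T3, dexamethasone, insulin, indomethacine and IBMX, cells were reverse transfected on day 4 with a locked nucleic acid (LNA) gapmer, an antisense oligonucleotide that directs RNase H to its target RNA, and were harvested on day 7. The gapmer was either ctrlA, which is non-targeting, or LNA1 or LNA2, both directed against the long noncoding RNA Gm15551. Cells of each LNA were left unstimulated or received 1 µM isoproterenol, a β-adrenergic agonist, for the last 24 h, which gave 6 groups of 3 libraries numbered 2, 3 and 4. All values come from 1 cell line, and no label says that the numbers stand for separate cultures, so the p-values measure only the spread between these libraries.

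MHC class I molecules display peptides from inside the cell to CD8+ T cells. A heavy chain (H2-D or H2-K in the mouse) pairs with β2-microglobulin, the product of B2m, and is loaded in the endoplasmic reticulum with peptides that the TAP1/TAP2 transporter brings in, while tapasin, the product of Tapbp, holds the empty molecule to the transporter. Psmb8, Psmb9 and Psmb10 encode the catalytic subunits of the immunoproteasome, which replace constitutive subunits and change which peptides are cut, and Nlrc5 encodes a transactivator of class I genes. Interferon is the best known inducer of this pathway, and most nucleated cells, adipocytes included, carry class I molecules at some level without it.

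Library totals ran from 9167560 to 19723021 estimated counts. The 6 libraries numbered 2 stood apart from the other 12. Between 2.88 and 14.3% of their counts came from a ribosomal RNA gene, against 0.285 to 1.04% in replicates 3 and 4, and 7.86 to 9.79% came from mitochondrial genes, against 2.56 to 4.97%. All 8 adipocyte markers passed the filter, which bore out the adipocyte part of the cell label. They summed to between 9832 and 23573 CPM (counts scaled to 1000000 per library with TMM factors) in each library, most of it Fabp4 (7070 to 20690 CPM). Cidea, a brown adipocyte marker in the paper, stood at 3.4 to 25.4 CPM, so the brown part of the label was not settled here. Ptprc, the pan-leukocyte marker, had 12 counts in all 18 libraries together, whereas Cd68, also on the immune marker list, stood at 7.82 to 42.3 CPM. The targeted Gm15551 had 1 to 14 counts per library and did not pass the filter. Its level was 0.492 ± 0.267 CPM with ctrlA, 0.341 ± 0.346 with LNA1 and 0.367 ± 0.373 with LNA2 (SD, n = 6 each, both stimulations together). A knockdown was not detected in a fit that left out the replicate number (edgeR without the filter, log2 fold change -0.70 ± 0.59 with LNA1 and -0.43 ± 0.57 with LNA2, adjusted p = 1 for both). In replicates 2, 3 and 4, unstimulated cells held 14, 8 and 7 counts with ctrlA, 12, 3 and 3 with LNA1 and 13, 3 and 1 with LNA2. Stimulated cells held 9, 2 and 2, then 1, 4 and 1, then 4, 5 and 1. A fit of Gm15551 with the replicate number is not given.

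Because antisense oligonucleotides can pair with RNAs other than their target, the sequences of the 3 gapmers are shown first, 5′ to 3′. Capitals mark the longest run that is perfectly complementary to a transcript of the member named after the LNA, the member that holds the longest run for LNA1 and ctrlA, and Tap1 for LNA2.
LNA1 against Nlrc5: gaTGACTGAGAttaga
LNA2 against Tap1: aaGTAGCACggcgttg
ctrlA against Tap2: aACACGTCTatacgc

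LNA1 and LNA2 were complementary to Gm15551 over all 16 nucleotides. For LNA1 the runs in the members were 6 to 9 nucleotides long, and the longest, 9 nucleotides in Nlrc5, was matched or exceeded in 12.4% of the tested genes with a transcript sequence. For LNA2 they were 5 to 7 nucleotides long. The runs in Tap1 and Tapbp were 7 nucleotides each, as were those in H2-D1, H2-K1, B2m and Psmb8, and 62.1% of the tested genes held a run at least as long. For ctrlA the longest run was 8 nucleotides in Tap2, matched or exceeded in 11.3% of genes. Such a run describes sequence only and was not tested for pairing in cells.

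The members lie in few places of the genome (GRCm38, annotation GENCODE M21, all protein coding). Psmb9 (chr17:34181987-34187764, minus strand), Tap1 (chr17:34187553-34197225, plus strand), Psmb8 (chr17:34197721-34201454, plus strand) and Tap2 (chr17:34203527-34216321, plus strand) stand next to each other in the MHC. H2-K1 (chr17:33996017-34000347, minus strand) and Tapbp (chr17:33915899-33929292, plus strand) lie nearby, and H2-D1 (chr17:35262730-35267499, plus strand) lies farther along the same chromosome. B2m is on another chromosome (chr2:122147686-122153083, plus strand), and Psmb10 (chr8:105935735-105938444, minus strand) and Nlrc5 (chr8:94434356-94527272, plus strand) share another one. Exons of Tap1 and Psmb9 overlap on opposite strands over 212 bases, those of Tapbp overlap an opposite gene over 904 bases, and those of Tap2 and Psmb8 overlap opposite genes over 698 and 498 bases. Use of strand in the counting was not given in the sources used here, so reads in these stretches may have been assigned to either partner.

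Promoter sequences of the heavy chain genes, B2m, Tap1 and Tapbp, on which the results below turn, are printed here, since class I heavy chain and B2m promoters are known for a shared layout: a κB site and an interferon-stimulated response element (ISRE), followed by an SXY module in which a TGACG core and a reversed CCAAT box serve the complex that NLRC5 joins. Promoter entries from RefSeq (GRCm38.p6, 250 bases before to 50 bases after the start) were found for 8 of 10 members, Tap2 and Nlrc5 being the exceptions. Capitals mark, on either strand, the κB consensus, the ISRE core GAANNGAAA, a longer form in which GAAA is repeated after any 2 bases, TGACG and CCAAT.
H2-D1, chr17:35262918-35263027, plus strand: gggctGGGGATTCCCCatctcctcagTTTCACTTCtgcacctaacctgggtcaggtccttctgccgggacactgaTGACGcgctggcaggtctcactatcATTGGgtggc
H2-K1, chr17:34000354-34000463, minus strand: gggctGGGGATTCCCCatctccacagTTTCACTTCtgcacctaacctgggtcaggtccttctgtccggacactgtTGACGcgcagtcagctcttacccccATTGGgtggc
B2m, chr2:122147543-122147643, plus strand: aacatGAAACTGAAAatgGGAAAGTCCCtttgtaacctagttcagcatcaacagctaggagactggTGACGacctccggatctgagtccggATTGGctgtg
Tap1, chr17:34187331-34187555, plus strand: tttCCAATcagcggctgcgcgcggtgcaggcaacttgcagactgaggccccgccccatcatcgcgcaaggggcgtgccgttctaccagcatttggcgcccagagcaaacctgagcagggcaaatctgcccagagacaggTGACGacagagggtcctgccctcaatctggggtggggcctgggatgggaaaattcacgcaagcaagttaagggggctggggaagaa
Tapbp, chr17:33919228-33919527, plus strand: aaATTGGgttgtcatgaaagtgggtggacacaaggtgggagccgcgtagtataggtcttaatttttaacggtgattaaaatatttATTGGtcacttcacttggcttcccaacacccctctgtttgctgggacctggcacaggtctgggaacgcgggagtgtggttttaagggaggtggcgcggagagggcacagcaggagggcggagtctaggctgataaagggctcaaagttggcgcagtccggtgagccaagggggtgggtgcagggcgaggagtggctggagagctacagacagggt

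The H2-D1 and H2-K1 windows were identical at 99 of 110 aligned bases. In both, and in B2m, the TGACG and the reversed CCAAT box stood 25 bases apart, and the ISRE core GAANNGAAA was found in H2-D1 and H2-K1. The longer form, searched after the B2m sequence had been seen, was found just upstream of the κB match in B2m and in none of the other 7 entries. Tap1 and Psmb9 are transcribed away from each other from RefSeq starts 226 bases apart, so the printed Tap1 stretch is also the upstream sequence of Psmb9. It holds 1 TGACG and 1 CCAAT, and the Tapbp entry, whose RefSeq start lies inside the gene as GENCODE draws it, holds 2 CCAAT boxes and none of the other motifs. Of the 32851 mouse promoter entries, 7.52% held GAANNGAAA, 3.44% the longer form, 8.46% the κB consensus, 20.8% TGACG and 37.4% CCAAT. A match of this kind describes letters, not binding.

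B2m and H2-D1 were the most abundant members in these cells, and Psmb8 was the least abundant. Levels of different genes were set side by side per kilobase of exon, with the exons of all annotated transcripts of a gene joined. A gene whose transcript in use is shorter than this gets too low a value, and the transcripts in use were not examined. On this scale B2m stood at 395 ± 188 CPM per kb (SD, n = 18), H2-D1 at 197 ± 36.6, H2-K1 at 41.9 ± 9.51 and Tapbp at 36.4 ± 11.4. Lower down came Psmb10 at 11.9 ± 3.4, Tap1 at 8.32 ± 2.43, Tap2 at 7.16 ± 2.68, Nlrc5 at 3.63 ± 0.522, Psmb9 at 3.62 ± 0.82 and Psmb8 at 1.09 ± 0.298 CPM per kb. The gap between B2m and H2-D1 was wider in the libraries numbered 2: B2m stood at 652 and H2-D1 at 163 CPM per kb there, against 268 and 214 in replicates 3 and 4. Psmb10 and Tap1 stood at 14.9 and 5.55 CPM per kb in replicate 2 and at 10.4 and 9.73 in the others. Compared within libraries, H2-K1 stood above Tapbp in 16 of 18 and Tap1 above Tap2 in 16 of 18, while Psmb10 stood above Tap1 in 6 of 6 libraries of replicate 2 and 7 of 12 others. Nlrc5 stood above Psmb9 in 1 of 6 and 7 of 12, so the order of these last 2 was not fixed. The order from H2-D1 to H2-K1 is uncertain in 1 respect: both are closely similar members of a polymorphic family, salmon divides shared reads between them, and the MHC haplotype of the line was not given in the sources used here.

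Each immunoproteasome subunit was set against the constitutive subunit whose place it takes in the proteasome. On the CPM per kb scale Psmb8 stood at 0.522 ± 0.18% of Psmb5 (SD, n = 18), Psmb9 at 4.79 ± 0.803% of Psmb6 and Psmb10 at 18.1 ± 3.63% of Psmb7. All 3 constitutive genes were therefore the more abundant form in all 18 libraries, by the highest ratios of 0.985, 6.69 and 30.6%. The size of these shares depends on the joined exon lengths. These were 3381 bases for Psmb8 and 899 for Psmb5, 3660 for Psmb9 and 1872 for Psmb6, and 1705 for Psmb10 and 3421 for Psmb7. In CPM without scaling by length, Psmb8, Psmb9 and Psmb10 reached at most 6.21, 20.2 and 33.2. Psmb5, Psmb6 and Psmb7 stood at 148, 97.5 and 161 CPM or more. Since these are bulk samples, a change in the share of cells of a type and a change in RNA per cell cannot be told apart.

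**Figure D1:**
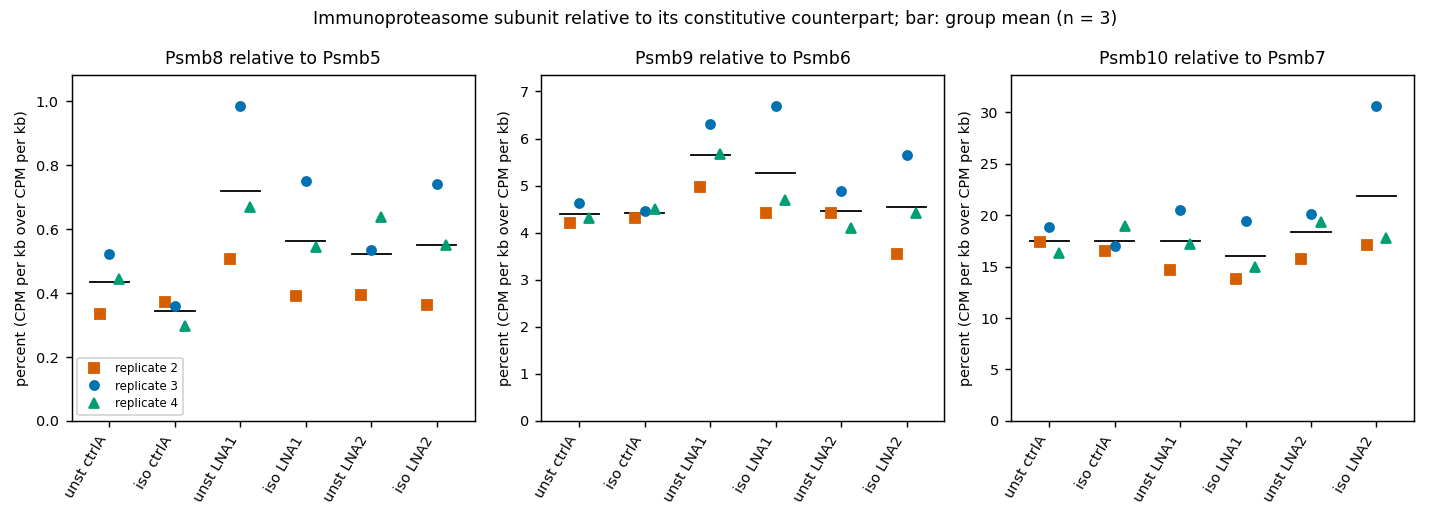
Level of each immunoproteasome subunit as a percentage of its constitutive counterpart (vertical axis, CPM per kb over CPM per kb) in 6 groups of 3 libraries (unst, unstimulated; iso, isoproterenol); symbols mark the replicate number and bars the group mean. On this scale, which depends on the exon lengths used, Psmb8 remained under 1% of Psmb5 in all libraries. The highest value of Psmb10, 30.6% of Psmb7, came from the stimulated LNA2 library of replicate 3.

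For 8 of the 10 members the replicate number accounted for more of the variation than LNA or stimulation. It accounted for a median of 68.6% of the sum of squares of log2 CPM over the 10 members, against 49.4% over all tested genes, whereas LNA accounted for 9.83% and stimulation for 2.37%. For B2m the share was 96.9% and for Tap2 92.8%. The exceptions were Psmb8, with 21.5% for the number and 35.2% for LNA, and Nlrc5, with 11% for the number, 27.9% for LNA and 23.1% for stimulation.

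B2m was higher in all 6 libraries of replicate 2 than in any of the other 12. Its level was 561 ± 25.7 CPM in replicate 2 (n = 6) and 230 ± 19.9 CPM in replicates 3 and 4 (n = 12), a 2.44-fold difference. The transporter and heavy chain genes went the other way. Tap2 stood at 14.2 ± 1.49 CPM in replicate 2 and 33.6 ± 4.57 in replicates 3 and 4, Tapbp at 85 ± 12 and 156 ± 27.4, Tap1 at 30.4 ± 4.46 and 53.3 ± 8.67, and H2-K1 at 92.5 ± 10.6 and 139 ± 19.8, without overlap in any of these 4. H2-D1, Psmb8, Psmb9, Psmb10 and Nlrc5 overlapped between the numbers. Thus 1 of 10 members lay wholly above and 4 wholly below in replicate 2, and over all tested genes 17.4% lay wholly above and 17.1% wholly below. The ribosomal and mitochondrial shares given above move with the same split, and their part in it was not tested. What the numbers stand for was not given in the sources used here.

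**Figure D2:**
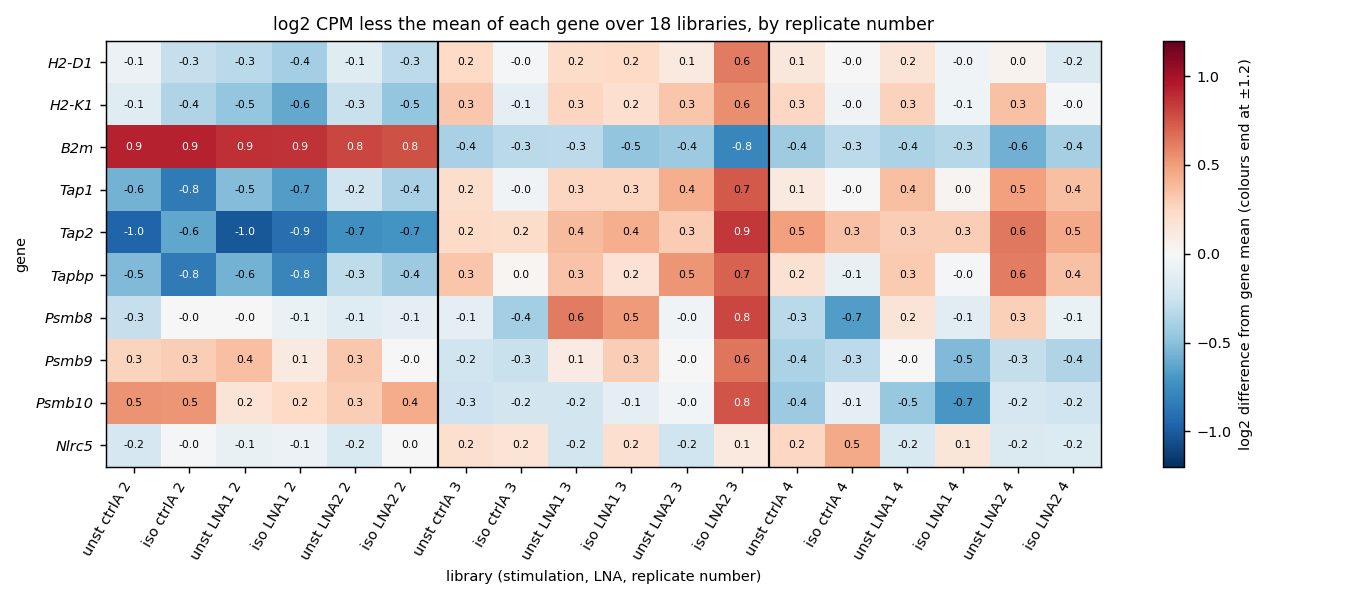
Heat map of log2 CPM of the 10 genes (rows) less the mean of each gene over the 18 libraries (columns, ordered by replicate number 2, 3 and 4, then by group); the colour and the printed value give that difference. B2m is high and Tap1, Tap2, Tapbp and H2-K1 are low in all 6 libraries of replicate 2, and the stimulated LNA2 library of replicate 3 holds the highest value in 8 of the 10 rows.

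One library stood out within its own number. The stimulated LNA2 library of replicate 3 held the highest value of all 18 for 8 members, with 772 CPM of H2-D1 against at most 591 elsewhere, 72.9 CPM of Tap1 against at most 61.3, and 33.2 CPM of Psmb10 against at most 28.5. For B2m it held the lowest value, 180 CPM against at least 207. It also had the lowest mitochondrial share of all 18, 2.56% of its counts against 3.67 to 4.97% in the other libraries of replicates 3 and 4, and the part of this in its values was not tested. Without it the median log2 fold change of the 10 members with LNA2 against ctrlA went from 0.16 to 0.02, and values of single members without it are given beside the results below, an alternative chosen after seeing the data.

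Does transfection with an LNA against Gm15551, or β-adrenergic stimulation, change the level of these genes? In the edgeR quasi-likelihood fit over the 6 groups, none of the 10 members was called with LNA1 against ctrlA, with LNA2 against ctrlA, with LNA2 against LNA1 or with isoproterenol (adjusted p below 0.05 and log2 fold change beyond 0.5, Benjamini-Hochberg over all 14949 genes). Over all genes the share called was 0.442, 1.42, 0.923 and 3.2% in that order. The lowest adjusted p of a member was 0.691, 0.367, 0.801 and 0.31, and 1, 2, 0 and 1 members had an unadjusted p below 0.05. DESeq2 called 0 members in the same 4 comparisons too, against 133, 338, 232 and 629 genes in all. In the test of any difference among the 6 groups 0 members were called by edgeR at an adjusted p below 0.001 (0 with an unadjusted p below 0.05), against 0.455% of all genes. DESeq2 called 0 members in this test, against 3.72% of all genes. No member and no other gene (0% of those tested) was called by edgeR for an interaction of LNA1 or LNA2 with isoproterenol, and 0 members had an unadjusted p below 0.05 there. DESeq2 called 0 members, 0 genes in all for LNA1 and 2 for LNA2, and with the block described next 0 members, 4 genes for LNA1 and 2 for LNA2. Both comparisons with ctrlA share the 6 ctrlA libraries.

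The replicate number widened the error of that fit, since libraries of 1 number deviated from their group means together. With the number as a block, the standard error of B2m fell from 0.41 to 0.06 log2 units and that of Tap1 from 0.25 to 0.06. Again no member passed both limits in the 4 comparisons, against 364, 826, 615 and 1046 of all 14949 genes in the order given above. By adjusted p alone, 2 members were higher and 2 lower with LNA2 against ctrlA, 2 were higher with LNA2 against LNA1, 2 were lower with isoproterenol and 0 passed with LNA1 against ctrlA (3 with an unadjusted p below 0.05). By the same rule 9.43% of all genes were higher and 11.2% lower with LNA2 against ctrlA, 8.23 and 7.2% with LNA2 against LNA1, 14.2 and 12.2% with isoproterenol, and 3.77 and 4.03% with LNA1 against ctrlA. The median log2 fold change of the 10 members without the block was 0.16 with LNA2 against ctrlA, against -0.02 over all genes, and -0.01 with LNA1 against ctrlA, against -0.02.

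**Figure D3:**
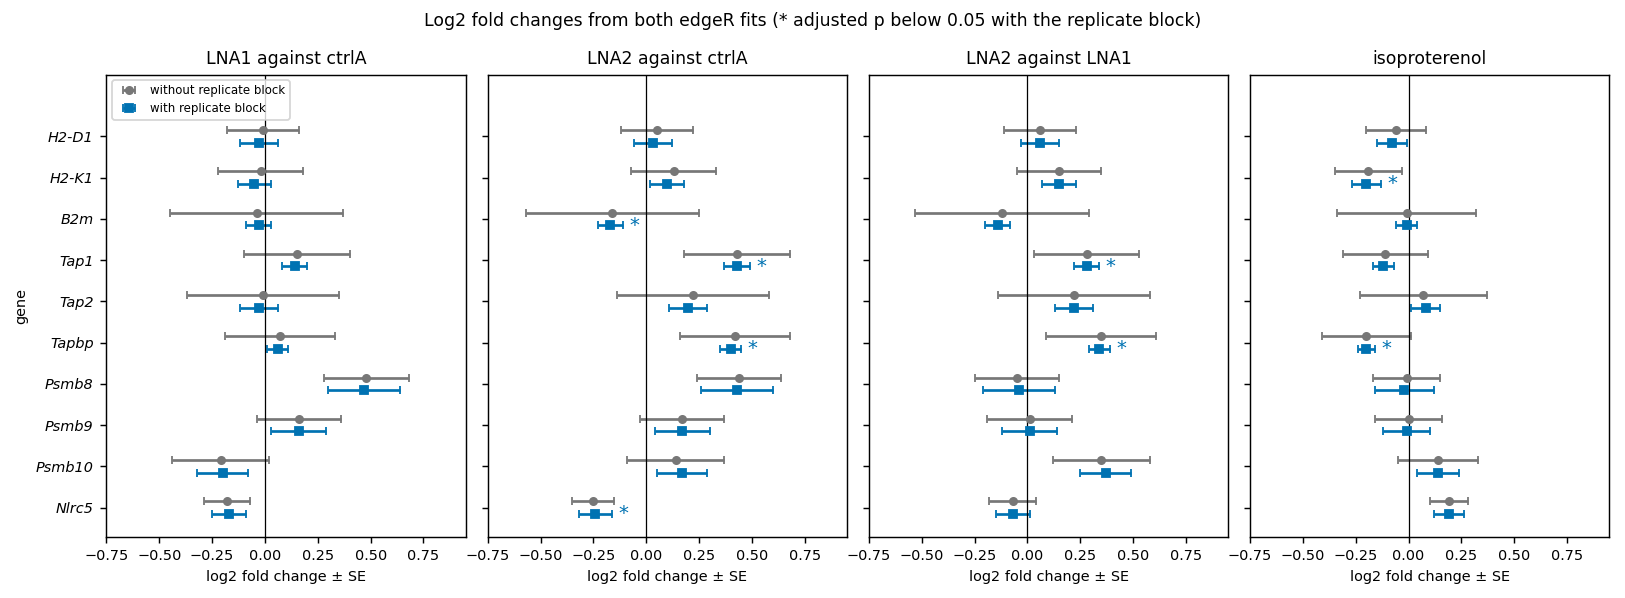
Log2 fold changes (horizontal axis, ± SE) of the 10 genes in 4 comparisons, from the edgeR fit without (grey circles) and with (blue squares) the replicate number as a block; an asterisk marks an adjusted p below 0.05 with the block. Tap1 and Tapbp are higher with LNA2 in both comparisons that hold it, and the block narrows the error bars of B2m and Tap2 most.

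Tap1, which encodes 1 of the 2 chains of the peptide transporter, was higher with LNA2 than with ctrlA in 6 of 6 pairs of the same number and stimulation. In unstimulated cells of replicates 2, 3 and 4 it stood at 29.5, 50.7 and 47.5 CPM with ctrlA, at 30.5, 52.2 and 56.3 with LNA1 and at 37.1, 59.2 and 61.3 with LNA2. Under isoproterenol it stood at 24.3, 42.5 and 43.6 CPM with ctrlA, at 27.5, 52.3 and 44.8 with LNA1 and at 33.3, 72.9 and 56 with LNA2. Within each number LNA2 gave the highest value, whereas across numbers the groups overlapped. The log2 fold change of LNA2 against ctrlA was 0.43 ± 0.25 (SE) without the block (adjusted p = 0.636) and 0.43 ± 0.06 with it (adjusted p = 0.000227), a 1.34-fold difference with a 95% interval of 1.22 to 1.47. Against LNA1 it was 0.28 ± 0.06 with the block (adjusted p = 0.00712, 6 of 6 pairs), and LNA1 against ctrlA gave 0.14 ± 0.06 (adjusted p = 0.19, 6 of 6 pairs).

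Tapbp, which encodes tapasin, behaved alike. With ctrlA the unstimulated cells held 86.9, 158 and 143 CPM in replicates 2, 3 and 4, with LNA1 85, 160 and 156, and with LNA2 102, 182 and 193. Under isoproterenol the values were 70.1, 128 and 118 CPM with ctrlA, 72.8, 142 and 124 with LNA1, and 93.3, 206 and 161 with LNA2. LNA2 was again highest within each number, and LNA1 lay close to ctrlA. The log2 fold change of LNA2 against ctrlA was 0.42 ± 0.26 without the block (adjusted p = 0.694) and 0.40 ± 0.05 with it (adjusted p = 7.24e-05, 6 of 6 pairs), and against LNA1 it was 0.34 ± 0.05 with the block (adjusted p = 0.00046, 6 of 6 pairs). Tapbp was also the only member called in the test of any difference among the 6 groups with the block (adjusted p = 8.24e-05, against 8.93% of all genes called).

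**Figure D4:**
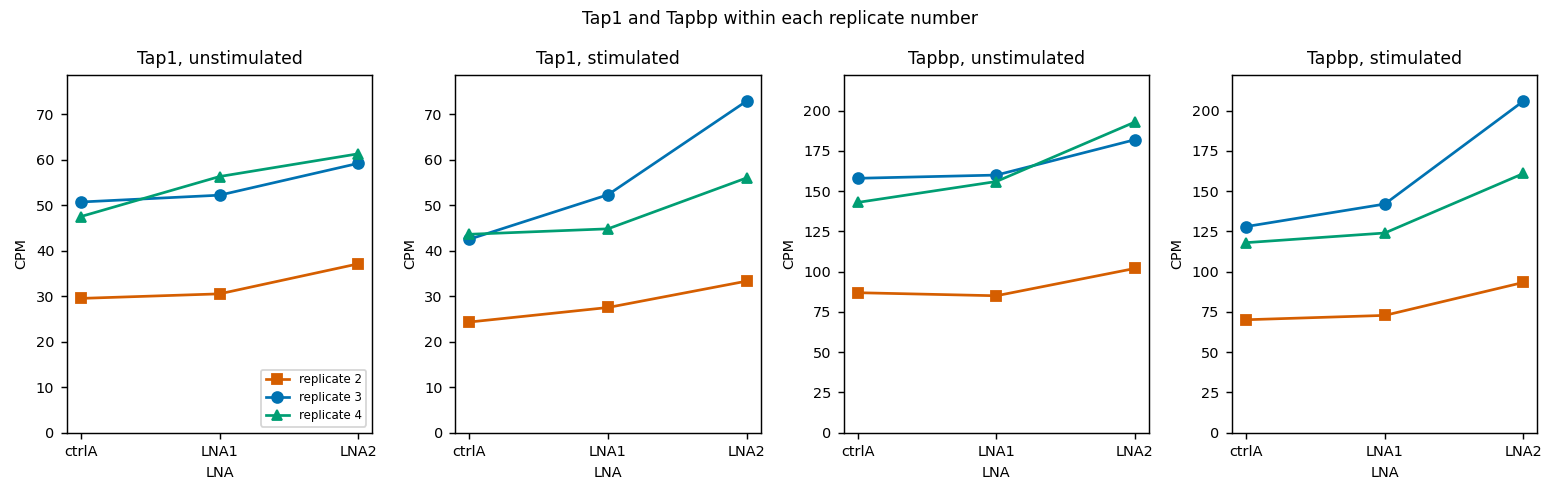
Levels of Tap1 and Tapbp (vertical axis, CPM) with ctrlA, LNA1 and LNA2, in unstimulated and stimulated cells; each line joins the libraries of 1 replicate number. In all 4 panels each line ends highest at LNA2, and the lines of replicate 2 lie below the others.

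The size of the LNA2 difference was then looked at within numbers and within each stimulation. Averaged over stimulation, the log2 difference of Tap1 between LNA2 and ctrlA was 0.39, 0.50 and 0.36 in replicates 2, 3 and 4, and that of Tapbp was 0.32, 0.45 and 0.44. With the block, Tap1 and Tapbp passed both limits in stimulated cells (Tap1 0.54 ± 0.09, adjusted p = 0.00141, and Tapbp 0.52 ± 0.07, adjusted p = 0.000562), where 5.51% of all genes did. Both were, without the stimulated LNA2 library of replicate 3, under the limit on fold, at 0.41 ± 0.08 (adjusted p = 0.00356) and 0.42 ± 0.06 (adjusted p = 0.00113). In unstimulated cells the values were 0.31 for Tap1 (adjusted p = 0.0574) and 0.29 for Tapbp (adjusted p = 0.0307), both under the limit on fold, which 2.79% of all genes passed. That the difference depends on stimulation was not shown: the interaction was 0.24 ± 0.13 for Tap1 and 0.23 ± 0.10 for Tapbp (unadjusted p = 0.0792 and 0.045, adjusted p = 0.81 for both).

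Both differences kept their direction and passed when any single library was removed. In the 18 fits with the block that each left out 1 library, the log2 fold change of LNA2 against ctrlA lay between 0.36 and 0.46 for Tap1 and between 0.36 and 0.44 for Tapbp, with an adjusted p below 0.05 in 18 of 18 fits for both. Without the stimulated LNA2 library of replicate 3 they were 0.36 ± 0.05 and 0.36 ± 0.04, and against LNA1 they were 0.22 ± 0.05 and 0.30 ± 0.04. Without the 6 libraries numbered 2, and with no block, the values against ctrlA were 0.47 ± 0.09 for Tap1 (adjusted p = 0.00929) and 0.47 ± 0.09 for Tapbp (adjusted p = 0.00835). Against LNA1, without these libraries and with the block, Tap1 was 0.28 ± 0.08 (adjusted p = 0.0787), which did not pass. Tapbp was 0.36 ± 0.07 there (adjusted p = 0.0198), which passed.

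Tap2, the partner chain of Tap1, ranged from 12.4 to 45.2 CPM. With LNA2 against ctrlA its log2 fold change was 0.20 ± 0.09 with the block (adjusted p = 0.133, higher in 5 of 6 pairs), with a 95% interval from 0.01 to 0.39. With LNA1 against ctrlA it was -0.03 ± 0.09. Without the stimulated LNA2 library of replicate 3 the LNA2 value was 0.10 ± 0.08 with the block (adjusted p = 0.377). Without the block it dropped from 0.22 to 0.04 when that library was left out.

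B2m was slightly lower with LNA2 in every pair. In replicates 2, 3 and 4 it stood at 587, 236 and 230 CPM in unstimulated ctrlA cells, at 566, 248 and 237 with LNA1 and at 537, 228 and 207 with LNA2. Under isoproterenol the values were 587, 247 and 249 CPM with ctrlA, 565, 223 and 244 with LNA1, and 524, 180 and 235 with LNA2. The LNA2 libraries were the lowest of their number in unstimulated and in stimulated cells. The log2 fold change of LNA2 against ctrlA was -0.17 ± 0.06 with the block (adjusted p = 0.046, lower in 6 of 6 pairs), a 0.89-fold level with a 95% interval of 0.819 to 0.967. This passed in 4 of the 18 fits that left out 1 library, and its highest adjusted p among them was 0.133. The value was -0.12 ± 0.04 (adjusted p = 0.0481) without the stimulated LNA2 library of replicate 3.

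The heavy chain genes did not change detectably with either LNA. H2-D1 stood at 476, 589 and 548 CPM in unstimulated ctrlA cells of replicates 2, 3 and 4, at 401, 583 and 560 with LNA1 and at 451, 542 and 514 with LNA2. Under isoproterenol it stood at 413, 495 and 498 CPM with ctrlA, at 376, 591 and 487 with LNA1 and at 403, 772 and 443 with LNA2. The groups overlapped, and its log2 fold change with the block was -0.03 ± 0.09 with LNA1 and 0.03 ± 0.09 with LNA2 against ctrlA, with 95% intervals of 0.864- to 1.12-fold and 0.9- to 1.17-fold. It was higher than with ctrlA in 2 of 6 pairs with LNA1 and in 1 of 6 with LNA2. Without the stimulated LNA2 library of replicate 3 the LNA2 value was -0.08 ± 0.05 with the block (adjusted p = 0.351). Without the block it turned from 0.05 to -0.12 when that library was left out. For H2-K1 the values with the block were -0.05 ± 0.08 with LNA1 and 0.10 ± 0.08 with LNA2, the latter being 0.01 ± 0.06 without that library. When the counts of 17 class I heavy chain genes were summed to 1 feature, which removes the question of how reads were divided among them, the log2 fold change was -0.03 ± 0.08 with LNA1 and 0.05 ± 0.08 with LNA2 (adjusted p = 0.854 and 0.727 with the block).

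Among the immunoproteasome genes Psmb8, with 22 to 79 counts per library, had the largest log2 fold change with LNA1. In unstimulated cells of replicates 2, 3 and 4 it stood at 2.95, 3.32 and 2.86 CPM with ctrlA, at 3.56, 5.5 and 3.97 with LNA1 and at 3.22, 3.47 and 4.34 with LNA2. Under isoproterenol it stood at 3.57, 2.7 and 2.25 CPM with ctrlA, at 3.37, 5.09 and 3.26 with LNA1 and at 3.32, 6.21 and 3.38 with LNA2. In 5 of 6 pairs it was higher with LNA1, and likewise with LNA2, but replicate 2 showed little of this, with log2 differences of 0.09 and 0.01. The log2 fold change with the block was 0.47 ± 0.17 with LNA1 (adjusted p = 0.114) and 0.43 ± 0.17 with LNA2 (adjusted p = 0.0898), and neither passed. The LNA2 value was 0.30 ± 0.17 (adjusted p = 0.244) without the stimulated LNA2 library of replicate 3.

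Relative to Psmb5, its constitutive counterpart, Psmb8 was 0.66 ± 0.23 log2 units higher with LNA1 than with ctrlA (the SE was 0.14 with the block), and 0.43 ± 0.23 higher with LNA2. Psmb5 itself was lower with LNA1 in 6 of 6 pairs, at -0.21 ± 0.06 with the block (adjusted p = 0.0472). Psmb9 was 0.29 ± 0.12 higher relative to Psmb6 with LNA1 and 0.01 ± 0.12 with LNA2. Psmb10 differed from Psmb7 by -0.07 ± 0.15 with LNA1 and 0.17 ± 0.15 with LNA2. These differences were not tested across genes. Psmb9 itself ranged from 8.98 to 20.2 CPM, with a log2 fold change of 0.16 ± 0.13 for LNA1 and 0.17 ± 0.13 for LNA2 with the block, the latter being 0.01 ± 0.10 without the stimulated LNA2 library of replicate 3. Psmb10 stood at 28.5, 16.5 and 14.5 CPM in unstimulated ctrlA cells of replicates 2, 3 and 4, at 22, 16.9 and 14.3 with LNA1 and at 24.1, 19.2 and 17.1 with LNA2. Under isoproterenol it stood at 28.3, 16.9 and 18.2 CPM with ctrlA, at 23.1, 18.2 and 12.1 with LNA1 and at 26.8, 33.2 and 16.6 with LNA2. It was higher with LNA2 than with LNA1 in 6 of 6 pairs, by 0.37 ± 0.12 log2 units with the block, just short of the limit (adjusted p = 0.0538), and by 0.21 ± 0.09 without that library (adjusted p = 0.112). DESeq2 with the block gave 0.37 ± 0.13 and an adjusted p of 0.0401, which passed, as 7.77% of all genes did in that direction.

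Nlrc5, the transactivator, was the member least tied to the replicate number. It stood at 26.7, 34.9 and 36.3 CPM in unstimulated ctrlA cells of replicates 2, 3 and 4, at 28.8, 26.3 and 27 with LNA1 and at 27, 26 and 27.2 with LNA2. Under isoproterenol it stood at 30.3, 34.2 and 41.9 CPM with ctrlA, at 29.2, 35.2 and 33.8 with LNA1 and at 30.8, 33.2 and 27.4 with LNA2. The lower values with the targeting LNAs came from replicates 3 and 4, while in replicate 2 the log2 differences from ctrlA were 0.03 with LNA1 and 0.02 with LNA2. The log2 fold change with the block was -0.24 ± 0.08 for LNA2 (adjusted p = 0.0444, higher in 2 of 6 pairs) and -0.17 ± 0.08 for LNA1 (adjusted p = 0.221), and the LNA2 value passed in 7 of the 18 fits that left out 1 library, with a highest adjusted p of 0.13. It was -0.27 ± 0.08 (adjusted p = 0.0268) without the stimulated LNA2 library of replicate 3.

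**Figure D5:**
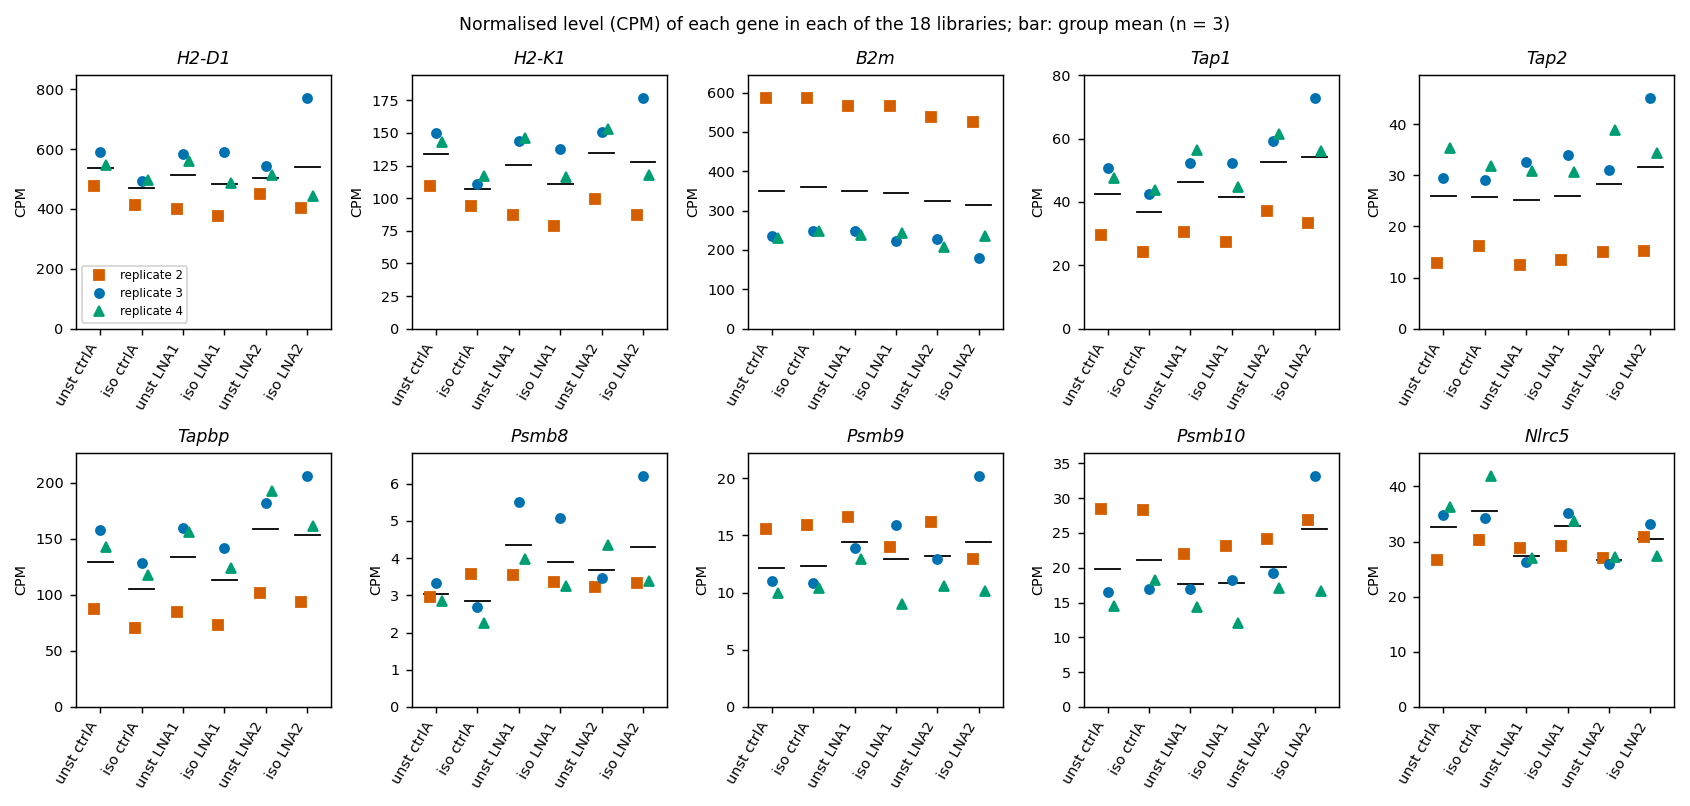
Normalised level (vertical axis, CPM, from 0) of the 10 genes in the 18 libraries by group (unst, unstimulated; iso, isoproterenol); symbols mark the replicate number and bars the group mean of 3 libraries. Differences between replicate numbers exceed those between groups for B2m, Tap2, Tap1, Tapbp and H2-K1, and the stimulated LNA2 library of replicate 3 holds the highest H2-D1 value, 772 CPM.

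Differences with isoproterenol were small. Tapbp was lower under isoproterenol in 8 of 9 pairs, by -0.20 ± 0.04 on the log2 scale with the block (adjusted p = 0.00211), a 0.869-fold level, and this passed in 18 of the 18 fits that left out 1 library. Without the 6 libraries numbered 2 the Tapbp value with the block was -0.20 ± 0.06 (adjusted p = 0.0549), which did not pass. H2-K1 was lower in 8 of 9 pairs too. It stood at 109, 150 and 143 CPM in unstimulated and 93.8, 111 and 117 in stimulated ctrlA cells, at 87.3, 144 and 146 and then 78.4, 138 and 116 with LNA1, and at 99.6, 151 and 153 and then 87.4, 177 and 118 with LNA2. The 1 pair against this direction was replicate 3 with LNA2. Its log2 fold change was -0.20 ± 0.07 with the block (adjusted p = 0.0461), which passed in 3 of the 18 fits that left out 1 library. Without the stimulated LNA2 library of replicate 3, 4 members were past an adjusted p of 0.05 and all were lower: H2-K1 at -0.26 ± 0.05 (adjusted p = 0.00106), Tapbp at -0.23 ± 0.03 (adjusted p = 5.24e-05), Tap1 at -0.16 ± 0.04 (adjusted p = 0.00596) and H2-D1 at -0.15 ± 0.04 (adjusted p = 0.0168). By that rule 13.7% of all genes were lower and 16.1% higher in the same fit. Nlrc5 was higher in 8 of 9 pairs, by 0.19 ± 0.07 (adjusted p = 0.0502), and DESeq2 with the block gave 0.19 ± 0.07 with an adjusted p of 0.0347, which passed, as 14.4% of all genes did in that direction. With all 18 libraries and the block Tap1 stood at -0.12 ± 0.05 (adjusted p = 0.1), Tap2 at 0.08 ± 0.07 and Psmb10 at 0.14 ± 0.10 (higher in 6 of 9 pairs), none of which passed. The values of H2-D1, B2m, Psmb8 and Psmb9 with the block lay between -0.08 and -0.01, with 95% intervals of 0.854- to 1.05-fold for H2-D1 and 0.926- to 1.06-fold for B2m.

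Members varied together to different degrees. With the mean of each replicate number removed from log2 CPM, Tap1 and Tapbp had a Pearson correlation of 0.95 over the 18 libraries and H2-D1 and H2-K1 one of 0.85, while B2m and Tap1 had one of -0.81. Tap1 and Psmb9, whose starts lie next to each other, had one of 0.56. These libraries share groups, depth and the library that stood out, so the values are a description. The genes outside the list most like the mean standardised level of the members were Gnai2 (0.96), Pold2 (0.93), Pcsk7 (0.92), Mtch1 (0.91) and Gusb (0.91), and with the number means removed Rab10os (0.92), Igsf8 (0.91), Klhl22 (0.91), Trmt2a (0.90) and Pick1 (0.90).

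Genes that act beside the members were counted from lists of the same pathway. Of the other class I and class I-like heavy chains, 11 of 19 in the table were tested and 0 were called without the block in any of the 4 comparisons. With the block and by adjusted p alone, 2 were lower with LNA2 against ctrlA, where 11.2% of all genes were, and 3 were lower with isoproterenol, where 12.2% were. With LNA2 against LNA1 1 was higher, H2-T22 (0.21 ± 0.06, adjusted p = 0.0372), and 1 lower, H2-T23 (-0.20 ± 0.06, adjusted p = 0.0356), where 8.23 and 7.2% of all genes were. H2-T23, a non-classical heavy chain, was also among those lower in the first 2 comparisons, at -0.28 ± 0.06 with LNA2 (adjusted p = 0.00391) and -0.33 ± 0.05 with isoproterenol (adjusted p = 9.27e-05, lower in 9 of 9 pairs). Of 10 loading and trimming factors, 0 were called without the block, and with it 2 were lower with LNA2 against ctrlA, where 11.2% of all genes were: Pdia3, the disulphide isomerase ERp57 of the loading complex, at -0.27 ± 0.06 (adjusted p = 0.00416), and calnexin (Canx) at -0.16 ± 0.05 (adjusted p = 0.0292). With LNA1 against ctrlA 1 was higher (3.77% over all genes), Uggt1, the glucosyltransferase that checks glycoprotein folding, at 0.39 ± 0.06 (adjusted p = 0.00121, 6 of 6 pairs). With LNA2 against LNA1 2 were lower (7.2% over all genes), and with isoproterenol 1 was lower (12.2%).

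Of 16 constitutive proteasome and activator genes 0 were called without the block. With it, 4 of 16 were lower with LNA1 against ctrlA, where 4.03% of all genes were, among them Psme1 (-0.31 ± 0.06, adjusted p = 0.00378) and Psme2 (-0.27 ± 0.04, adjusted p = 0.000656), which encode the interferon-inducible proteasome activator PA28. With LNA2 against ctrlA 3 were lower and 1 higher (11.2 and 9.43% over all genes), with LNA2 against LNA1 2 were higher (8.23%), and with isoproterenol 2 were higher and 1 lower (14.2 and 12.2%). Of the 22 tested regulators of class I transcription 0 were called without the block, and with it 3 were higher and 3 lower with LNA2 against ctrlA, near the 9.43 and 11.2% of all genes. Among them Rfxank, a subunit of the RFX complex that binds the X box, was lower with LNA2 at -0.24 ± 0.06 (adjusted p = 0.00884). Ezh2, a histone methyltransferase, was lower too at -0.26 ± 0.06 (adjusted p = 0.00423), and Stat3 was higher at 0.24 ± 0.06 (adjusted p = 0.00584). The median log2 fold changes with LNA2 against ctrlA were 0.03 for the other heavy chains, -0.10 for loading and trimming factors, -0.03 for the constitutive proteasome and 0.07 for the regulators, against -0.02 over all genes.

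Interferons themselves were hardly detected. Ifnb1 and Ifna4 had 0 counts in all libraries, which allows up to 0.306 CPM in the shallowest of them, and Ifng had 3 counts in all. Of 11 tested interferon receptor and signalling genes 1 was called without the block, Ifngr1, a chain of the interferon-γ receptor, which fell by 0.69 on the log2 scale with isoproterenol (SE 0.07, adjusted p = 1.77e-05, lower in 9 of 9 pairs). Jak1, a kinase bound to interferon receptors, was lower with LNA2 against ctrlA, at -0.44 ± 0.08 (adjusted p = 0.00808 without and 5.35e-05 with the block, lower in 6 of 6 pairs), under the limit on fold. With the block 1 of the 11 was higher and 2 were lower with LNA2 against ctrlA (9.43 and 11.2% over all genes), and 2 were higher and 2 lower with isoproterenol (14.2 and 12.2%). Of 23 tested interferon-stimulated genes 1 was called, Ifi27l2a, which rose with LNA2 against ctrlA (2.12 ± 0.42, adjusted p = 0.0176, 6 of 6 pairs). With LNA1 it was higher in 6 of 6 pairs too (1.48 ± 0.42, adjusted p = 0.236, and 1.54 ± 0.16, adjusted p = 3.96e-05 with the block). With the block 5 of the 23 were higher and 0 lower with LNA2 against ctrlA (9.43 and 11.2% over all genes), 3 were higher and 0 lower with LNA2 against LNA1 (8.23 and 7.2%), 1 was higher with LNA1 against ctrlA (3.77%), and 2 were higher and 6 lower with isoproterenol (14.2 and 12.2%). The median log2 fold change of the list was 0.25 with LNA2 and 0.15 with LNA1, against -0.02 over all genes in both, and -0.18 with isoproterenol, against 0. Over the 10 members the median was 0.16 with LNA2 and -0.01 both with LNA1 and with isoproterenol. The LNA2 value of the members was 0.02 without the stimulated LNA2 library of replicate 3. The value of the interferon-stimulated list without that library is not given, so it cannot be set beside this 0.02.

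Summed markers of other cells were low beside the summed adipocyte markers, though the adipocyte marker Cidea itself stood at 3.4 to 25.4 CPM. Of 15 immune cell markers 3 passed the filter, and their sum ranged from 9.12 to 27.2 CPM with ctrlA, from 13 to 31.4 with LNA1 and from 14.7 to 45.9 with LNA2. Among them Cd68, a lysosomal glycoprotein, stood at 14.2 ± 6.67 CPM with ctrlA and 25.5 ± 10.3 with LNA2 (SD, n = 6; log2 fold change 0.88, adjusted p = 0.057, and 7.74e-05 with the block), and it was called with isoproterenol (0.90 ± 0.18, adjusted p = 0.00618), while Ptprc had 0 counts in 11 libraries. The other 2 were low, with 144 and 104 counts in all libraries together: Csf1r, a macrophage growth factor receptor, averaged 0.378 CPM with ctrlA, 0.27 with LNA1 and 1.23 with LNA2 (LNA2 against ctrlA 1.73 ± 0.52, adjusted p = 0.137, and 0.00677 with the block), and Ms4a1, a B cell marker, averaged 0.585, 0.564 and 0.265 (-1.11 ± 0.58, adjusted p = 0.564, and 0.149 with the block). Of 9 MHC class II genes 3 were tested and 0 were called, with a sum between 10.8 and 19.2 CPM. With the block and by adjusted p alone, 1 of the 3 was higher with LNA2 against LNA1, where 8.23% of all genes were. By that rule 1 tested immune marker was higher with LNA1 against ctrlA (3.77% over all genes) and 2 with LNA2 against ctrlA (9.43%). Higher immune markers numbered 2 with LNA2 against LNA1 (8.23%) and 1 with isoproterenol (14.2%), and 0 were lower. Pdgfra, a preadipocyte marker, was called with LNA2 (0.71 ± 0.13, adjusted p = 0.0121) and with LNA1 (0.89 ± 0.13, adjusted p = 0.00743). The other 3 tested preadipocyte markers were not called with either LNA without the block: Cd34 stood at -0.67 and -0.34, Pdgfrb at 0.20 and -0.22 and Ly6a at 0.57 and 0.15 on the log2 scale with LNA2 and LNA1. With the block Ly6a (adjusted p = 0.00549) and Pdgfrb (adjusted p = 0.0398) were also higher with LNA2. Of the 8 adipocyte markers 0 were called with either LNA without the block, and with it 3 were lower and 0 higher with LNA2 (Pparg -0.20, Fabp4 -0.21, Elovl3 -0.38), where 11.2% of all genes were lower, and 2 were lower and 0 higher with LNA1 (Plin1 -0.23, Elovl3 -0.44), where 4.03% were. With isoproterenol Ly6a rose (1.58 ± 0.41, adjusted p = 0.0415), as did Cidea (1.27 ± 0.20, adjusted p = 0.0011), and Adipoq fell by 0.71 (SE 0.14, adjusted p = 0.0073). The part of these markers in the Tap1 and Tapbp differences was not tested.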

How the data were processed

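The authors trimmed reads with cutadapt and estimated counts per gene with salmon against the Gencode M22 transcriptome (GRCm38); tool versions were not given in the sources used here. The deposited table holds these estimated counts, rounded to whole numbers, for 54347 genes. From it, edgeR 4.0.16 (R 4.3.3, limma 3.58.1) fitted 1 term per group over 18 libraries (TMM, filterByExpr minimum count 10, total 15, quasi-likelihood test, two-sided, Benjamini-Hochberg). Calls needed an adjusted p below 0.05 and a log2 fold change beyond 0.5 (joint test: adjusted p below 0.001). LNA comparisons were averaged over stimulation. DESeq2 1.42.0 was an alternative. Levels are counts scaled to 1000000 with TMM factors, without pseudocount; correlations used log2 CPM with a prior count of 2. The script was tested on simulated data.

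Libraries were grouped by their labels. No pair of libraries held the same values. The replicate numbers were taken to pair the libraries because for 17 of 18 libraries the best match outside their group had the same number. All 45 same-numbered pairs deviated together (correlation of deviations from group means 0.24 to 0.72, median 0.43). The lowest value was 0.65 in replicate 2, 0.25 in replicate 3 and 0.24 in replicate 4. Since the group means hold the libraries numbered 2, which stood apart, positive values within numbers 3 and 4 could arise without pairing. No label says what the numbers mark. All members are described; values per library are given where a member passed in an edgeR fit over all 18 libraries, and for H2-D1, Psmb8 and Psmb10, which were added after their values were seen. Genes of other lists were named where called, with those passing with the block chosen after their values were seen. One gene of these lists is not reported here. The members and lists were chosen with earlier results of these data known. Depth sets a floor of 0.17 to 0.306 CPM (3 counts), for counting error only.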

Additional observations from a re-analysis of the deposited data

How the results depend on the processing

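The number of members called was 0 in each of the 4 comparisons and for both interactions with the size factors of DESeq2, with DESeq2, without the filter, with the replicate block, without the 6 libraries numbered 2, without ribosomal and mitochondrial genes, and in the fits that left out 1 library. In the joint test it was 1 with the replicate block and 2 in DESeq2 with the replicate block, where 8.93 and 19.1% of all genes were called. The replicate block with a limit on adjusted p alone, chosen after seeing the data, gave 4 members with LNA2 against ctrlA, 2 with LNA2 against LNA1 and 2 with isoproterenol. Over 40 log2 fold changes and 1020 alternative values, 90 changed sign, all of them values that were not called, and the cause was not tested. The other 930 kept their sign and side of the limits, apart from differences from Psmb5, Psmb6 and Psmb7. Those were counted as kept when they lay within 1 SD inside groups of the main value. Among them Psmb9 with LNA2 against LNA1 went from 0.01 to -0.28, and Psmb8 with LNA1 against ctrlA from 0.48 to 0.66. When 1 library was left out of the fit without the block, the values that changed sign ranged as follows. With LNA1 against ctrlA they ranged from -0.1 to 0.08 for H2-D1, -0.12 to 0.09 for H2-K1, -0.32 to 0.26 for B2m, -0.15 to 0.17 for Tap2 and -0.03 to 0.2 for Tapbp. With LNA2 against ctrlA they ranged from -0.12 to 0.15 for H2-D1, -0.03 to 0.25 for H2-K1 and -0.46 to 0.13 for B2m (with the block, B2m ranged from -0.21 to -0.12). With LNA2 against LNA1 they ranged from -0.11 to 0.15 for H2-D1, 0 to 0.26 for H2-K1, -0.42 to 0.15 for B2m, -0.23 to 0.07 for Psmb8 and -0.15 to 0.11 for Psmb9. With isoproterenol they ranged from -0.2 to 0.19 for B2m, -0.05 to 0.17 for Tap2, -0.13 to 0.06 for Psmb8 and -0.11 to 0.07 for Psmb9. Without the 6 libraries numbered 2, the LNA1 values were 0.09 for H2-D1, 0.09 for H2-K1, 0.01 for B2m and 0.06 for Tap2, and the isoproterenol value of Psmb9 was 0.08. Isoproterenol values of 0 were found for B2m and Psmb8 without ribosomal and mitochondrial genes, for Psmb8 with DESeq2, and for Psmb9 with the size factors of DESeq2, with DESeq2, without the filter and without ribosomal and mitochondrial genes. Without the 6 libraries numbered 2, and with the block on the other 2 numbers, B2m with LNA2 was -0.15 (adjusted p = 0.285), Tap1 with LNA2 against LNA1 was 0.28 (adjusted p = 0.0787), and with isoproterenol H2-K1 was -0.21 (adjusted p = 0.139) and Tapbp -0.20 (adjusted p = 0.0549), so these calls were lost with fewer libraries while the values stayed close to those with all libraries. With the block and without the stimulated LNA2 library of replicate 3, chosen after seeing the data, the stimulated cells' calls of Tap1 and Tapbp with LNA2 fell under the limit on fold, at 0.41 and 0.42. Depth was lowest for Psmb8, at 22 to 79 counts per library.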
